A study of Rattus norvegicus with 24 samples.

Results

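The microRNAs rno-miR-103-3p and rno-miR-107-3p were examined in rat serum across 2 diets and 2 exposures. Both members were chosen by name, 2 of 753 mature miRNA names in the tables, and both were counted in all 23 libraries and passed the low-count filter. Small RNA was sequenced from 100 µl of serum per male Wistar Kyoto rat. Fish oil ozone rats (5 libraries) ate a custom diet with 6% fish oil by weight and breathed 0.8 ppm ozone for 4 h a day on 2 days. Fish oil air rats (6 libraries) ate that diet and breathed filtered air on the same schedule. Normal diet ozone rats (6 libraries) and normal diet air rats (6 libraries) ate standard facility chow and had the same exposures. Feeding started when the rats were 4 weeks old and went on for 8 weeks before exposure. The fish oil feed and the chow are different products and no other oil was analysed here, so fish oil itself and other differences between the feeds cannot be told apart. Libraries are named by group and replicate, and fish oil ozone 2 was not analysed here.

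A mature miRNA guides Argonaute proteins to messenger RNAs that pair with its seed, the bases near its 5′ end, and those messages are then repressed. The miR-103 and miR-107 genes lie inside pantothenate kinase genes, whose enzymes carry out the first step of coenzyme A synthesis. In mouse liver and fat, miR-103 and miR-107 are known to lower insulin sensitivity, with the membrane protein caveolin-1 as a target, and miR-103 is also in use as a reference for assays of miRNAs in blood fluids.

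The mature sequences of both members are shown first because they decide what can be told apart by sequencing. They are given 5′ to 3′ from RefSeq (GRCr8), with the seed, bases 2 to 8, in capitals:
rno-miR-103-3p: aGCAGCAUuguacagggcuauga
rno-miR-107-3p: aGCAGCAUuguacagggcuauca
Both are 23 bases long with the seed GCAGCAU, and of 693 mature rat names searched only these 2 have it at bases 2 to 8. They differ at 1 base, G22C, counted from the 5′ end, with the miR-103-3p base first. That base is in capitals here:
rno-miR-103-3p: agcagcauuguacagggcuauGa
rno-miR-107-3p: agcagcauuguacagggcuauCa
The first 21 bases are shared, so a read that ends before base 22 fits both members equally. How such reads were assigned, and how many mismatches were allowed, is not given in the sources used here, so the split of reads between the members is uncertain. A value for the members summed does not depend on that split.

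The seed also links the members to the miR-15/16 family, which regulates the cell cycle and cell survival. The motif AGCAGCA, searched on the RNA strand only, fills bases 1 to 7 of both members and bases 2 to 8 of 5 other rat miRNAs. It is in capitals in the abundant miR-16-5p and in miR-497-5p, which are described again further on:
rno-miR-16-5p: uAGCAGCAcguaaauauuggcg
rno-miR-497-5p: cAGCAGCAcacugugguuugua
In all, 7 of the 693 mature names (1.01%) hold the motif anywhere.

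Each member comes from the 3′ arm of its hairpin. The hairpins are shown because most differences between the 3 genes lie outside the mature sequence, with the mature 3p arm, bases 52 to 74, in capitals (RefSeq, GRCr8):
Mir103a1: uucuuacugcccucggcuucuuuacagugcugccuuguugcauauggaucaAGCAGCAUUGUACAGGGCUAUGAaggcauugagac
Mir103a2: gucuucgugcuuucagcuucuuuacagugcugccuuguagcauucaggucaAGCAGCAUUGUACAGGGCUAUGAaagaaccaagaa
Mir107: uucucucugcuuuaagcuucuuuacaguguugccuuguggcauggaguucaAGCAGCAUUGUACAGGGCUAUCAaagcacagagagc
Mir103a1 lies inside Pank3 on chromosome 10 and Mir103a2 inside Pank2 on chromosome 3, both on the plus strand. Mir107 lies inside Pank1 on chromosome 1 on the minus strand. Each has the strand of its host gene. Hairpin identity was 80.2% between Mir103a1 and Mir103a2, 80.9% between Mir103a1 and Mir107, and 83% between Mir103a2 and Mir107.

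The deposited table gives counts per locus, with positions on rn5. The miR-107-3p locus (chr1:260347524-260347547) had 1197 reads over all libraries, 16 to 95 per library. The 2 miR-103-3p loci had 6204 reads (chr10:20480402-20480425) and 6137 reads (chr3:130329303-130329326). The chromosome 10 locus held 50.27% of them, and 42% to 53.35% in single libraries, which does not depart from an even split (chi-square 14.95, 23 degrees of freedom, p = 0.8966). Since the mature copies are identical, the counts cannot say which gene the serum miR-103-3p came from, and the loci were summed. The 5p arms gave almost no reads: miR-103-1-5p had 3 reads in 2 libraries, while miR-103-2-5p and miR-107-5p were listed at 0 in every library.

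Fish oil libraries held fewer miRNA reads on average, and levels are therefore given on 2 scales. The miRNA total was 33302 ± 7385 counts in fish oil ozone and 37262 ± 11332 in fish oil air, against 63357 ± 20129 in normal diet ozone and 65638 ± 15675 in normal diet air (SD). The total that the authors divided by, worked out from their 2 tables and called the implied read total here, was 2243916 to 7729947. Which reads that total counts was not established here. Libraries fish oil ozone 3 and fish oil air 3 had the lowest median Spearman correlation with the other libraries over the 136 tested miRNAs (0.848 and 0.88). Serum miRNAs come from many tissues. Red cell markers (3 of 4 listed) had summed levels of 492.5 to 2630 CPM (miRNA counts scaled to a common total, as CPM) in fish oil ozone and 830.6 to 3059 in fish oil air, against 270.7 to 1084 in normal diet ozone and 496 to 1184 in normal diet air. Of the markers in the tables, only the myeloid miR-142-3p (25 reads in all) was at 0 across a whole group, fish oil ozone.

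miR-103-3p was among the abundant serum miRNAs, ranking 13 to 30 within each library, and miR-107-3p ranked 54 to 94. Together they took 0.617% to 2.06% of the miRNA counts. Reads of miR-103-3p numbered 350, 180, 586, 321 and 370 in fish oil ozone libraries 1, 3, 4, 5 and 6. In the larger groups, with lowest, median and highest, they numbered 200, 481.5 and 828 in fish oil air, 297, 554.5 and 1207 in normal diet ozone, and 366, 600.5 and 889 in normal diet air. These numbers follow the library totals and are not levels.

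As a level, miR-103-3p had 10770, 5918, 13190, 12490 and 11230 CPM in fish oil ozone libraries 1, 3, 4, 5 and 6. Its lowest, median and highest values were 5463, 13370 and 16230 CPM in fish oil air, 5344, 10300 and 12670 CPM in normal diet ozone, and 6406, 10050 and 11830 CPM in normal diet air. Every pair of groups overlapped, and in each group the lowest library was set off from the others by the widest gap of that group: fish oil ozone 3, fish oil air 3, normal diet ozone 6 and normal diet air 3. Ordered by mean level, fish oil air came first (12870 ± 3855 CPM), then fish oil ozone (10720 ± 2852), normal diet air (9954 ± 1939) and normal diet ozone (9925 ± 2728; SD, n = 6, 5, 6 and 6). No 2 neighbours in that order differed by more than the SD of either.

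miR-107-3p lay below miR-103-3p in every library. Its level was 1662, 690.4, 1621, 1167 and 880.2 CPM in fish oil ozone libraries 1, 3, 4, 5 and 6. Its lowest, median and highest values were 437.1, 1318 and 1775 CPM in fish oil air, 665.7, 1012 and 1693 CPM in normal diet ozone, and 488.5, 958.7 and 1250 CPM in normal diet air. All groups overlapped here too, and fish oil ozone 3 and fish oil air 3 were again the lowest of their groups. The means were 1204 ± 434 CPM in fish oil ozone, 1177 ± 551.3 in fish oil air, 1088 ± 374 in normal diet ozone and 896.3 ± 276.5 in normal diet air (SD, same n), again with no neighbours further apart than their SD.

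**Figure D1:**
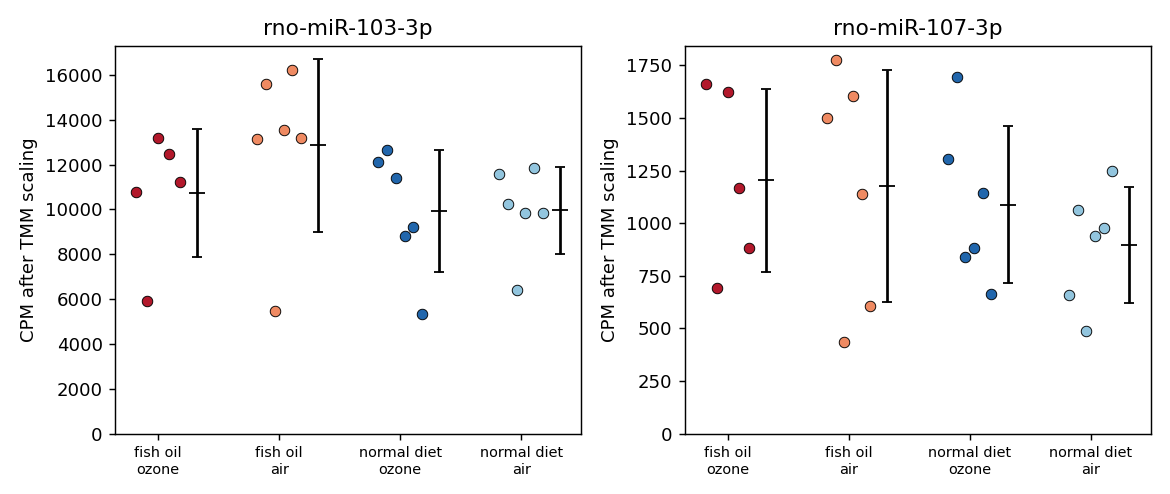
Level of each member in every library, in CPM after TMM scaling, by group; points are libraries, and the cross bar and whiskers are the mean and SD. Each of the 4 groups overlaps every other for both members, and for miR-103-3p the lowest library of each group is set off from the rest.

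Counting error was well below the spread between libraries for miR-103-3p and closer to it for miR-107-3p. From the read numbers alone, a miR-103-3p value carries a counting error of 2.88% to 7.45% and a miR-107-3p value one of 10.3% to 25%. The spread between libraries that edgeR estimated, beyond counting, was 30.78% for miR-103-3p and 36.96% for miR-107-3p, near the median of 34.75% over the tested miRNAs. Each rat was sequenced once, so differences between rats and between library preparations cannot be told apart in it. The p-values below rest on that spread between libraries.

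Relative to other serum miRNAs, neither member passed the test in any of the 7 comparisons. In the average of fish oil against the normal diet over both exposures, miR-103-3p had a log2 fold change of +0.24 (SE 0.18, 95% interval -0.12 to 0.60, edgeR adjusted p = 0.303). miR-107-3p had +0.27 (SE 0.24, 95% interval -0.21 to 0.75, edgeR adjusted p = 0.395). The upper bounds are 1.52-fold and 1.68-fold, so larger rises relative to other miRNAs lie outside these intervals. In this comparison 36.8% of the tested miRNAs were called at an edgeR adjusted p below 0.05, 27 higher and 23 lower, and the median log2 fold change over all 136 was 0.06. In serum, fewer releasing cells and less RNA per cell cannot be told apart, and this holds for all levels here.

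The diet difference was in the same direction under each exposure, without passing. Under air, miR-103-3p was higher than the normal diet mean in 5 of 6 fish oil libraries (edgeR log2 fold change +0.37, SE 0.24, adjusted p = 0.313) and miR-107-3p in 4 of 6 (edgeR +0.38, SE 0.33, adjusted p = 0.432). In that comparison 5.88% of miRNAs were called. Under ozone, miR-103-3p was higher in 4 of 5 (edgeR +0.11, SE 0.26, adjusted p = 0.794) and miR-107-3p in 3 of 5 (edgeR +0.16, SE 0.34, adjusted p = 0.771), where 22.8% of miRNAs were called.

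The average for miR-103-3p depended on a pair of libraries. Without fish oil ozone 3 and fish oil air 3, left out together after the data were seen, it was +0.36 with an edgeR adjusted p of 0.0438, beside 52 called of 144 miRNAs tested, while miR-107-3p at +0.39 did not pass (edgeR adjusted p = 0.142). Over all tested miRNAs fish oil ozone 3 was set off from the others, while fish oil air 3, at 0.88, was close to the next library, fish oil ozone 5, at 0.889. Each also holds the lowest value of both members in its own group, so leaving them out can only raise the fish oil means. With either one of them left out alone, neither member was called.

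Ozone left both members without a difference past the test. Averaged over diets, miR-103-3p had a log2 fold change of -0.13 (SE 0.18, 95% interval -0.50 to 0.23, edgeR adjusted p = 0.915) and miR-107-3p of +0.16 (SE 0.24, 95% interval -0.32 to 0.64, same adjusted p). Only 0.735% of miRNAs were called there, which is 1 miRNA, miR-375-3p of pancreatic islets (+0.90, SE 0.23, edgeR adjusted p = 0.0462). No miRNA was called there in 18 of 23 fits that left out 1 library, nor in 11 of 14 other settings, limma-voom among them; DESeq2 called 1. On the normal diet, miR-103-3p in ozone had the air level on average, with 3 of 6 libraries above it (edgeR -0.00, SE 0.24, adjusted p = 0.994), and miR-107-3p was higher in 4 of 6 (edgeR +0.27, SE 0.32, adjusted p = 0.939).

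On fish oil, miR-103-3p was higher in ozone in 2 of 5 libraries (edgeR -0.26, SE 0.26, adjusted p = 0.867) and miR-107-3p in 3 of 5 (edgeR +0.05, SE 0.34, adjusted p = 0.983). The interaction, the diet difference under ozone minus that under air, was -0.26 for miR-103-3p (SE 0.36) and -0.21 for miR-107-3p (SE 0.47), both with an edgeR adjusted p of 0.947. The share of miRNAs called by edgeR was 0% for ozone on the normal diet, 0% for ozone on fish oil and 0% for the interaction. At an unadjusted p below 0.05 edgeR had 4, 10 and 6 miRNAs in these 3 comparisons, DESeq2 called 1, 0 and 0 and limma-voom 0 in each.

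The direction of the diet difference turned round when the members were set against the implied read total of a library. The scale relative to other miRNAs takes no account of how many miRNA reads a library gave, and the scale relative to the implied read total does. On the authors' RPM, reads scaled to that total, both members summed had 74.03, 88.6, 167.7, 75.82 and 65.14 RPM in fish oil ozone libraries 1, 3, 4, 5 and 6. The lowest, median and highest were 66.51, 90.67 and 129.1 RPM in fish oil air, 96.59, 149 and 231.8 RPM in normal diet ozone, and 83, 130.5 and 186.3 RPM in normal diet air. All but 1 fish oil ozone library were below every normal diet ozone library, and under air the groups overlapped. The share of all tested miRNAs that separate the diets in this way was not worked out.

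Averaged over exposures, the summed RPM was 0.642 times the normal diet value by geometric means (log2 difference -0.64, exact permutation p = 0.00568, adjusted over 5 comparisons 0.0284). Of the 5 comparisons only this average passed. Under air the log2 difference was -0.48 (exact permutation p = 0.0974, adjusted 0.162) and under ozone -0.80 (exact permutation p = 0.039, adjusted 0.0974). Most miRNAs fell when set against the implied read total. Over all 136 tested, the edgeR median log2 fold change was -0.78 under air and -0.96 under ozone. The share called was 27.9% under air (37 lower, 1 higher) and 33.8% under ozone (46 lower, 0 higher). The summed members fell by less than the median under each exposure. Ozone gave +0.28 on the normal diet and -0.04 on fish oil, with adjusted p = 0.428 and 0.887 in the exact permutation test. The adjusted p of the average rose above 0.05 without any 1 of 8 libraries, to at most 0.0608: fish oil ozone 1, 5 or 6, fish oil air 3, normal diet ozone 3 or 5, or normal diet air 3 or 6. Without fish oil ozone 4, the library at 167.7 RPM, the comparison under ozone passed (-1.03, exact permutation adjusted p = 0.0238).

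Taken alone on that scale, with the implied read total as the library size in edgeR, miR-103-3p passed and miR-107-3p did not. Averaged over exposures, miR-103-3p fell by 0.64 on the log2 scale on fish oil (SE 0.24, 95% interval -1.14 to -0.15, edgeR adjusted p = 0.0253), and miR-107-3p had -0.65 (SE 0.30, edgeR adjusted p = 0.068). On that scale most miRNAs were lower: 70 of 136 were called lower and 1 higher, and the median log2 fold change was -0.87. Relative to that median both members were at +0.22. Closeness to the values relative to other miRNAs is largely built in, since the same counts are set against the same miRNAs. On average, then, the members together were a smaller share of the implied read total on fish oil. Their level relative to other miRNAs did not differ past the test. Scaled to library totals alone, a share of the miRNA reads, miR-103-3p had +0.34 (SE 0.16, edgeR adjusted p = 0.101). On that scale miR-107-3p had +0.35 (SE 0.22, edgeR adjusted p = 0.219), so neither passed.

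**Figure D2:**
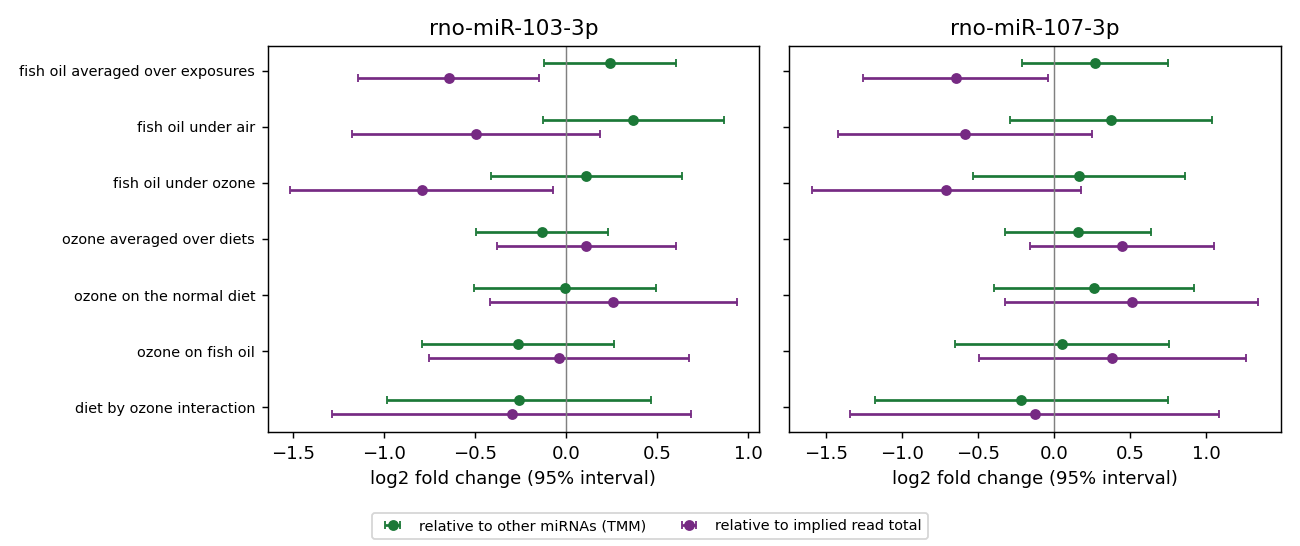
Log2 fold change of each member in the 7 comparisons, fish oil over normal diet or ozone over air, with 95% intervals; green points are relative to other miRNAs (TMM) and purple points relative to the implied read total. For fish oil averaged over exposures the green points lie at +0.24 and +0.27 and the purple points at -0.64 and -0.65; every green interval includes 0.

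The ratio of the members within a library needs no scaling and did not separate the groups. It does depend on how reads that end before base 22 were assigned, which is not known. Reads of miR-103-3p per read of miR-107-3p were 6.48, 8.57, 8.14, 10.7 and 12.8 in fish oil ozone libraries 1, 3, 4, 5 and 6. The lowest, median and highest ratios were 8.43, 10.7 and 21.8 in fish oil air, 7.48, 8.68 and 13.6 in normal diet ozone, and 7.86, 11.3 and 17.5 in normal diet air. The highest single ratio, in fish oil air 6, rests on 828 reads against 38.

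Fish oil averaged over exposures gave a log2 ratio difference of -0.000271 (exact permutation p = 0.999). Under air the difference was +0.03 and under ozone -0.03 (exact permutation, adjusted p = 0.999 for both). In ozone the ratio averaged 9.33 ± 2.44 on fish oil and 9.41 ± 2.24 on the normal diet, against 12.4 ± 5.17 on fish oil and 11.8 ± 3.35 on the normal diet in air (SD). The log2 difference of ozone from air was -0.36 on fish oil and -0.31 on the normal diet, and neither passed (exact permutation test, adjusted p = 0.601 for both).

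**Figure D3:**
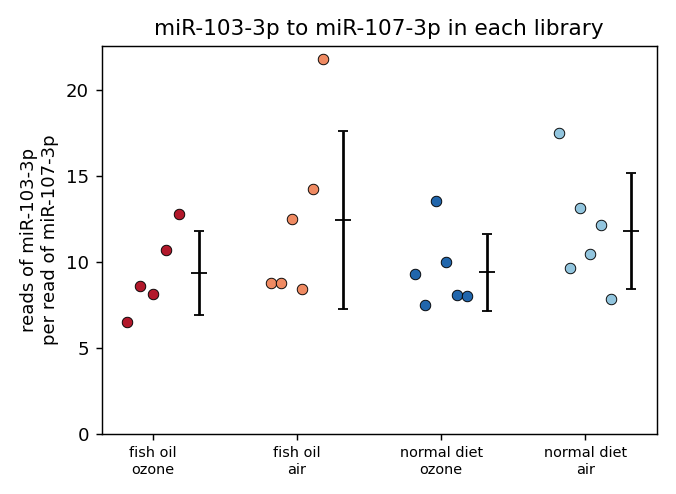
Reads of miR-103-3p per read of miR-107-3p in each library by group; points are libraries and whiskers the mean and SD. Ratios run between 6.48 and 21.8, and all 4 groups overlap.

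The 2 members tended to be high and low in the same libraries, as were other miRNAs of different seeds. Over 23 libraries the Pearson r of their log2 CPM was 0.696 (Spearman rho 0.568, and r 0.587 without the 2 libraries farthest from the median of miR-103-3p), and around the group means it was 0.729. All such correlations share the libraries, their depth and their scaling, and are given as a description. How reads that end before base 22 were assigned is not known, and its part in the correlation of the members was not tested. The median r over all other tested miRNAs was 0.0489 for miR-103-3p and 0.0999 for miR-107-3p.

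The miRNAs most like miR-103-3p were miR-320-3p (r = 0.836, rho 0.565), which is known in mouse to be made without the Drosha step, miR-532-5p (0.75, rho 0.547), miR-181b-5p (0.73, rho 0.742), miR-107-3p itself and let-7i-5p (0.688, rho 0.632). Those most like miR-107-3p were let-7b-5p (r = 0.739, rho 0.727), miR-532-5p (0.734, rho 0.621), let-7c-5p (0.714, rho 0.711), miR-103-3p and miR-351-5p (0.695, rho 0.604). Each member had rank 4 for the other. miR-16-5p, which shares the AGCAGCA motif, had r = -0.143 with miR-103-3p and -0.479 with miR-107-3p.

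**Figure D4:**
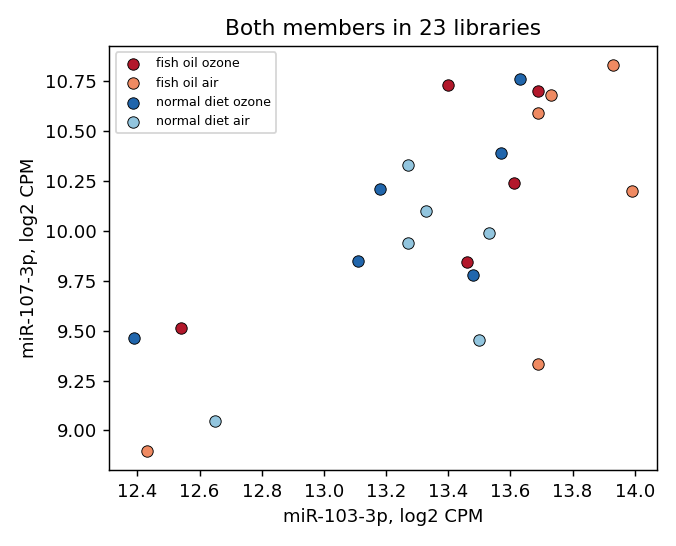
Log2 CPM of miR-107-3p against that of miR-103-3p in the 23 libraries, coloured by group. The libraries run from low values of both to high values of both (r = 0.696), and the groups are mixed along that line.

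Among the miRNAs that carry AGCAGCA, miR-16-5p and miR-103-3p made up most of the reads. The 7 names together made up 1.9% to 4.18% of the miRNA counts (median 2.83%). Of that pool, miR-16-5p, a red cell and general blood miRNA, took 57 ± 9.1% and miR-103-3p 37.3 ± 8.27%, while miR-107-3p took 3.78 ± 1.46% and miR-497-5p 1.44 ± 1.18% (SD, n = 23). By group, miR-103-3p took 37.4 ± 9.52% in fish oil ozone, 39.2 ± 9.7% in fish oil air, 37 ± 9.94% in normal diet ozone and 35.6 ± 5.22% in normal diet air. Those shares lay within each other's SD. miR-107-3p took 4.29 ± 1.89% in fish oil ozone, 3.63 ± 1.69% in fish oil air, 4.08 ± 1.4% in normal diet ozone and 3.22 ± 0.955% in normal diet air, and the differences in share were not tested.

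Of the related miR-15/16 list, 6 of 8 names were in the tables and 2 passed the filter. miR-497-5p, which restrains the cell cycle, had 495.2 CPM as its median in fish oil ozone (388.9 to 1414) and 352.1 in fish oil air (217.3 to 913.7), against 205.2 in normal diet ozone (60.46 to 344.3) and 269.9 in normal diet air (77.73 to 376.6). It did not overlap between diets under ozone, and the share of all tested miRNAs without overlap was not worked out. It rose on fish oil in the average (+1.29, SE 0.30, edgeR adjusted p = 0.00147), where 36.8% of all tested miRNAs were called. Under ozone it also rose (+1.71, SE 0.43, edgeR adjusted p = 0.00649), where 22.8% were called. It rests on 2 to 43 reads per library. miR-16-5p had +0.06 in the average (SE 0.15, edgeR adjusted p = 0.778).

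Other miRNAs with known roles in insulin action and lipid metabolism moved in both directions with the diet. Of 22 on that list, 15 were tested; averaged over exposures 5 rose, 3 fell and 7 did not pass, with a median log2 fold change of 0.05, against 0.06 over all tested miRNAs, of which 36.8% were called. The risers with the smallest p were miR-143-3p, which impairs insulin signalling in obese mice (+1.07, SE 0.23, edgeR adjusted p = 0.000913), miR-29c-3p (+1.09, SE 0.27, edgeR adjusted p = 0.00213), miR-27b-3p, a regulator of lipid genes in liver (+0.61, SE 0.16, edgeR adjusted p = 0.00309), and miR-29a-3p (+0.68, SE 0.19, edgeR adjusted p = 0.00585), followed by miR-181a-5p (+0.51). Those that fell were miR-130b-3p (-0.78), miR-223-3p (-0.80) and miR-26a-5p (-0.37). Under air 1 fell, the hepatocyte miRNA miR-122-5p (-2.06, SE 0.61, edgeR adjusted p = 0.0472), and none rose, where 5.88% of all tested miRNAs were called. Under ozone 4 rose, miR-29c-3p (+1.54), miR-143-3p (+1.27), miR-29a-3p (+0.85) and miR-27b-3p (+0.81), and miR-130b-3p fell (-1.04), where 22.8% of all were called.

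Markers of other cell types were called in both directions, beside 36.8% of all tested miRNAs called in the same comparison. Averaged over exposures, 2 of 3 tested red cell markers rose, miR-144-5p (+1.32, edgeR adjusted p = 0.000656) and miR-144-3p (+0.98, edgeR adjusted p = 0.0322). Of 4 platelet markers 2 rose (miR-126a-3p, +1.06, and miR-126a-5p, +0.64) and 1 fell (miR-223-3p, -0.80). Of 3 hepatocyte markers 1 fell (miR-192-5p, -0.62, edgeR adjusted p = 0.0118), and of 2 tested myeloid markers 1 fell (miR-223-3p again). The 3 tested striated muscle markers did not pass (log2 fold changes -0.16 to +0.33). The summed platelet markers had 21520 to 40340 CPM in fish oil ozone and 17450 to 30540 in fish oil air, against 18020 to 41380 in normal diet ozone and 16030 to 27090 in normal diet air. Hepatocyte markers summed to 63650 to 161300 CPM in fish oil ozone and 29150 to 67560 in fish oil air, against 47640 to 137700 in normal diet ozone and 63370 to 189600 in normal diet air. Myeloid markers summed to between 1754 and 8043 CPM and striated muscle markers to between 53.8 and 3876 CPM over all groups, which overlapped. Their part in the members' values was not tested, except for red cell breakage. With the log2 difference of miR-451-5p and miR-23a-3p as a covariate, fish oil averaged over exposures gave +0.28 for miR-103-3p and +0.36 for miR-107-3p (edgeR adjusted p = 0.227 for both). That index was -2.25 ± 1.36 in fish oil ozone and -1.9 ± 0.657 in fish oil air, against -2.84 ± 1.11 in normal diet ozone and -2.16 ± 0.567 in normal diet air (SD).

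Since miR-103-3p is used as a reference, its steadiness was set beside other miRNAs used that way. The SD of its log2 CPM over all 23 libraries was 0.45, which ranked 26 of 136 from the steadiest, and that of miR-107-3p was 0.56, which ranked 58; the median was 0.59. miR-24-3p (0.28, rank 2), miR-16-5p (0.30, rank 5), miR-93-5p (0.37, rank 14) and miR-23a-3p (0.42, rank 18) varied less. miR-30e-5p (0.49), miR-425-5p (0.53), miR-423-3p (0.73), miR-423-5p (0.94) and miR-191a-5p (0.98, rank 128) varied more than miR-103-3p. Of 9 tested members of this list, 1 rose on fish oil averaged over exposures (miR-30e-5p, +0.71), 2 fell (miR-191a-5p and miR-425-5p, -0.74) and 6 did not pass, beside 36.8% of all tested miRNAs called.

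What miR-103-3p showed thus depended on its partner in a ratio. Per 1000 reads of miR-191a-5p, which fell by 1.54 on fish oil (SE 0.22, edgeR adjusted p = 7.84e-06), miR-103-3p had a median of 183 reads in fish oil ozone (96.4 to 257) and 125 in fish oil air (68.2 to 296), against 36.1 in normal diet ozone (27.5 to 59) and 38.3 in normal diet air (33.5 to 50.9). The diets did not overlap, and the share of other miRNA pairs that separate them was not worked out. The separation is given as a description with no test, since the fall of miR-191a-5p was known when the pair was chosen. Per 1000 reads of miR-16-5p, the medians were 736 in fish oil ozone (324 to 1050) and 889 in fish oil air (274 to 935), against 614 in normal diet ozone (319 to 1150) and 626 in normal diet air (388 to 826), and all groups overlapped. Against miR-30e-5p the medians were lower on fish oil (1450 in ozone and 1830 in air, against 2130 and 2030). Against miR-23a-3p the median was lower under ozone only (4070 against 5080). Against the other reference miRNAs tested, medians were higher on fish oil under both exposures, and only miR-191a-5p separated the diets under both. Under air alone, miR-423-5p (1640 to 5130 against 878 to 1490) and miR-423-3p (3890 to 8000 against 2080 to 2940) also separated them.

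**Figure D5:**
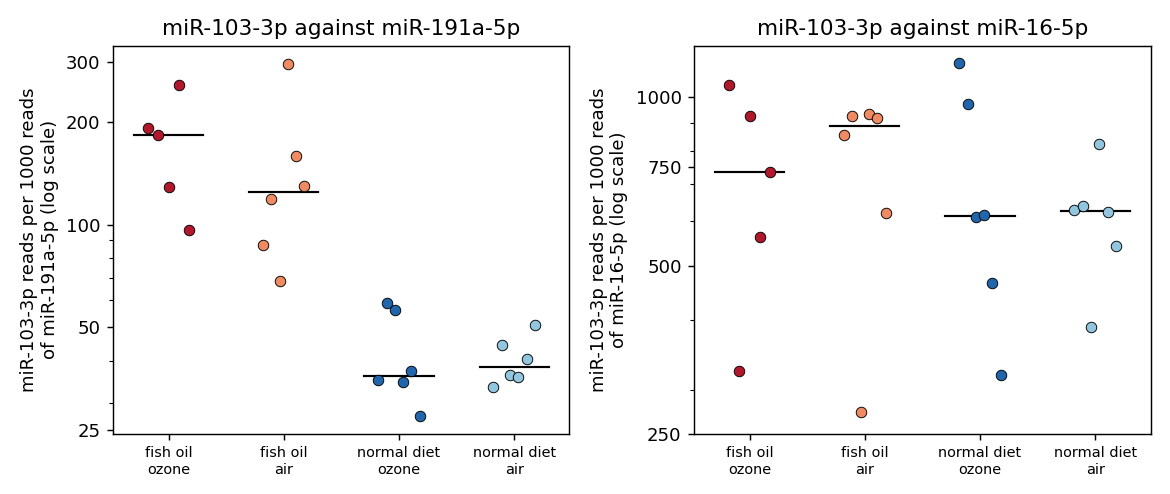
Reads of miR-103-3p per 1000 reads of miR-191a-5p (left) and of miR-16-5p (right) in each library, on log axes; lines are medians. Against miR-191a-5p all fish oil libraries, at 68.2 or more, lie above all normal diet libraries, at 59 or less; against miR-16-5p the groups overlap.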

How the data were processed

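The authors deposited 2 tables for 23 of 24 labelled libraries: expected counts per mature miRNA locus (50 of 832 loci hold fractions, none at the members' loci) and RPM per miRNA. Tools were bcl2fastq, Bowtie 1.0.0 and Partek on rn5, per the submitters' processing notes, with no further steps stated there. The deposited RPM equal the counts over 1 total per library plus 0.0001, to within 0.0332 reads, and give the implied read total. Whether positions count from 0 or 1 is not stated.

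Loci of 1 name were summed and rounded to whole counts. miRNA totals were 23276 to 94264 per library, and 3 counts, the floor for a detected miRNA, equal 31.8 to 129 CPM (counting error only, since reads carry no molecular identifiers). Of 440 names with a count, 136 passed filterByExpr (minimum count 10, minimum total 15) and held 99.3% of counts. edgeR 4.0.16 (R 4.3.3) quasi-likelihood tests used TMM scaling (factors 0.779 to 1.44), 1 mean per group and Benjamini-Hochberg adjustment over the 136 miRNAs, at 0.05. Ratios and summed RPM had exact two-sided permutation tests over libraries, within exposure for averages, in Python 3.11.15. CPM use TMM; correlations use log2 CPM with a prior count of 2. Alternatives used DESeq2 1.42.0 and limma 3.58.1. The tests were checked on simulated data.

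Members and lists were chosen with earlier results of these data known. Named miRNAs are the members, their other arms, up to 4 called miRNAs a list, all tested miR-15/16 relatives and the 5 most like each member; miR-181a-5p and the reference miRNAs that did not pass were named after their values were seen. Animal numbers run in a separate block for each group, so a batch that followed them and the groups cannot be told apart, and rats were housed in pairs that the labels do not name.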

Additional observations from a re-analysis of the deposited data

Results flagged for a closer look

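Of 16 groups of values examined, 3 held 1 library far from the others by Dixon's criterion at 95%, where chance flags about 1 group in 20. miR-103-3p in fish oil air 3 had 5463 CPM, with the nearest library of its group at 13150, a gap of 0.714 of the group's range. miR-103-3p in normal diet air 3 had 6406 CPM, with the nearest at 9828, a gap of 0.631 of the range. The summed RPM of both members in fish oil ozone 4 was 167.7, with the nearest at 88.6, a gap of 0.771 of the range.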

How the results depend on the processing

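Under the implied read total, limma on RPM with a pseudocount of 1, and with 10, in that order, directions turned round. Fish oil averaged over exposures gave -0.64, -0.64 and -0.59 for miR-103-3p and -0.65, -0.59 and -0.33 for miR-107-3p. Under air it gave -0.49, -0.48 and -0.44 for miR-103-3p and -0.58, -0.47 and -0.26 for miR-107-3p. Under ozone it gave -0.79, -0.80 and -0.73 for miR-103-3p and -0.71, -0.72 and -0.40 for miR-107-3p. For miR-103-3p, ozone averaged over diets gave 0.11, 0.0893 and 0.0853, and ozone on the normal diet 0.26, 0.25 and 0.23. That last value, near 0 in the report, was also positive with library totals alone (0.10), totals without the 5 most abundant miRNAs (0.000564) and no low-count filter (0.025). miR-107-3p turned negative for ozone on fish oil with totals alone (-0.0325), totals without the 5 most abundant (-0.0181) and the red cell covariate (-0.0551). The counts of both members added together, most of them miR-103-3p, gave -0.10 for ozone averaged over diets. That sum gave 0.033 for ozone on the normal diet and -0.23 for ozone on fish oil, and is not a value of either member alone. The log2 ratio for fish oil averaged over exposures was 0.019 with the highest locus per name. Without fish oil libraries 3 in both exposures (chosen after seeing the data) it was 0.0039, miR-103-3p passed (0.36) and summed RPM no longer did (-0.59). The cause was not tested.

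Leaving out 1 library at a time gave these ranges in the order fish oil averaged, under air, under ozone, then ozone averaged, on the normal diet, on fish oil, and interaction. For miR-103-3p they were 0.16 to 0.32, 0.21 to 0.53, -0.0203 to 0.22, -0.20 to -0.05, -0.14 to 0.14, -0.41 to -0.12 and -0.42 to -0.07. For miR-107-3p they were 0.15 to 0.36, 0.20 to 0.55, -0.0299 to 0.30, 0.07 to 0.23, 0.09 to 0.43, -0.13 to 0.21 and -0.44 to -0.01. Neither was called in any of these edgeR fits. For the log2 ratio (averaged, air, ozone, then ozone on each diet, normal first) they were -0.0904 to 0.0608, -0.15 to 0.15, -0.15 to 0.091, -0.42 to -0.18 and -0.48 to -0.18. For summed RPM they were -0.75 to -0.58, -0.60 to -0.37, -1.03 to -0.68, 0.15 to 0.41 and -0.27 to 0.0678. No paired analysis was possible because animal numbers pair no rats. With a miR-107-3p count of 16 to 95 per library, depth limits what its ratio and level can show.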
